A study of Mus musculus with 8 samples.

Results

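The region described here is chromosome 11 between 81 and 121 Mb (mm9), about 20 Mb on each side of Ezh1, the gene deleted in 2 of the 4 genotypes. Its members are the promoter windows of 6 kb centred in that interval, 681 of the 18603 windows measured, together with the RNA of the same gene symbols. Of these, 679 windows had a value of at least 1 in the highest library, against 17988 in the whole genome, so the region holds 3.77% of the windows that could be compared. The windows of ENSMUSG00000069609 and ENSMUSG00000089722 were under that minimum. Ezh1 itself is one member, with 346 windows to its left and 334 to its right. An RNA value was found for 678 members, and 202 of them were at 1 or more in the highest library, of 5448 such genes in all. The interval was set by position alone, and Coil, a window inside it, was already known from these data to differ.

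Naive CD4+ T cells from lymph nodes of 129SV/B6 mice were profiled for the histone mark H3K27me3 and for RNA. There were 4 genotypes: WT; the Ezh1 KO, which is Ezh1 -/-; the Ezh2 KO, in which Ezh2 fl/fl is combined with CD4-cre; and the double KO, which carries all of these alleles. By these genotypes, every cell of an Ezh1 -/- mouse lacks an intact Ezh1 allele, while the floxed Ezh2 allele is recombined by a cre driven by Cd4 regulatory sequence and is lost only in cells that have expressed it. Each genotype has 1 library per assay, 8 in all, and the labels do not say how many animals gave each library or whether animals were pooled. No difference below therefore has an SD or a p, and "higher" and "lower" compare single libraries. Where 4 values follow each other below, the first is that of WT, the next that of the Ezh1 KO, then the Ezh2 KO, and the last the double KO.

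Polycomb repressive complex 2 (PRC2) methylates lysine 27 of histone H3, and Ezh1 and Ezh2 are its alternative catalytic subunits. The mark is typically broad over CpG-rich promoters of silent developmental genes. In mice, a targeted allele can carry with it a surrounding stretch of chromosome from the strain in which it was made, so genes linked to Ezh1 may differ from a WT control for reasons other than loss of the protein. The question put to the region is whether differences shared by the Ezh1 KO and the double KO gather near Ezh1 more than they occur in the rest of the genome. A shared difference here means that Ezh1 KO over WT and double KO over Ezh2 KO both passed a given fold in 1 direction. These ratios have no library in common, and each sets a genotype with the targeted allele against one without it.

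The 4 windows that passed 1.5-fold in both ratios differ in sequence, and the 250 bases upstream of each window's centre show how. Capitals mark every CG pair, which reads the same on both strands. Sequences are 5′ to 3′ on the strand of the gene and were read from NCBIM37, the assembly also called mm9. Tmem132e, Coil and Myo15b are on the plus strand and Socs3 is on the minus strand.
Tmem132e, chr11:82202152-82202401: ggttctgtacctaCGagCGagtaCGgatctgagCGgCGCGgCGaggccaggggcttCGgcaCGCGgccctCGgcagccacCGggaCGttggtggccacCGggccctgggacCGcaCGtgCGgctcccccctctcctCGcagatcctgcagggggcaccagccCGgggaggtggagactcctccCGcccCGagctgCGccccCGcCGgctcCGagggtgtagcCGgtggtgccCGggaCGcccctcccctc
Coil, chr11:88831316-88831565: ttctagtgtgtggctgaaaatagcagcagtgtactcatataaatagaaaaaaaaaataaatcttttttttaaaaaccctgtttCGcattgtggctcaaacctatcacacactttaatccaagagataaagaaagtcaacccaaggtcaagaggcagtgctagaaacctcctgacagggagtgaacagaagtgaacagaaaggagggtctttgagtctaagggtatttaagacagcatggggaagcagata
Myo15b, chr11:115722676-115722925: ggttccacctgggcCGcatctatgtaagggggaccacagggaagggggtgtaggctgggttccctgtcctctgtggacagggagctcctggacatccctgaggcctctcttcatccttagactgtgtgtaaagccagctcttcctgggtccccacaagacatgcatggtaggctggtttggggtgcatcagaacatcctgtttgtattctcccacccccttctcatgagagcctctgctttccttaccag
Socs3, chr11:117831362-117831611: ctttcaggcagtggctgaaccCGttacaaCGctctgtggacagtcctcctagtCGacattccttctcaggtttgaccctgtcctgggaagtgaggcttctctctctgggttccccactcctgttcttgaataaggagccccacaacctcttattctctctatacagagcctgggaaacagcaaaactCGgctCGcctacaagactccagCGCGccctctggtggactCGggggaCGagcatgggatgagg
The stretch of Tmem132e holds 28 CG, that of Socs3 9, and those of Coil and Myo15b 1 each. Over the whole 6 kb window the counts were 308 CG at Tmem132e, 243 at Socs3, 191 at Myo15b and 44 at Coil. Tmem132e, Socs3 and Myo15b lie in the upper tertile of all windows by CG count, with 99%, 95.8% and 86.8% of windows holding fewer. Coil lies in the lower tertile, with 9.92% holding fewer. A CG count describes the sequence and does not show what binds there.

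The values behind the comparisons are summed coverage per M reads for H3K27me3 and, for RNA, the mean over exons of the peak coverage per M reads, which is not divided by length. Depth implied by the height of 1 read was 78.2 to 88.2 M reads per ChIP library, which puts 195 to 256 read equivalents in the median member window. All 9 T cell markers, among them Cd3e, Cd3g, Cd4 and Lck, were at 1 or more in every RNA library, with sums of 197.2 to 221.7. The 4 B cell markers found summed to 1.11 in WT, 1.49 in Ezh1 KO cells, 2.35 in Ezh2 KO cells and 4.21 in double KO cells, and none was at 0. The 3 NK cell markers summed to 0.402, 0.449 and 4.01 in the first 3 of these, and in double KO cells Gzma was at 1.13, Ncr1 at 0.0638 and Klrb1c at 0.0498. The 2 CD8 markers summed to 1.22, 1.01, 1.21 and 2.07, and the 4 myeloid markers to 0.373, 0.658, 0.683 and 1.3. Log2 ratios were taken after adding 1 to H3K27me3 values and 0.1 to RNA values. Intervals of 95% on H3K27me3 ratios are exact Clopper-Pearson intervals on read equivalents. They leave out the added 1, so they surround a ratio slightly further from 0 than the one printed. Such intervals hold counting error alone and no spread between animals or libraries, because each genotype has 1 library. Reads copied by PCR and carrying no molecular identifier are not independent molecules, so even counting error can be understated.

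Ezh1 RNA, the check of the targeted allele, was 1.05 in WT, 0.196 in Ezh1 KO cells, 1.12 in Ezh2 KO cells and 0.194 in double KO cells. The libraries labelled Ezh1 -/- were thus both low and the others both high. The log2 ratio was -1.96 for Ezh1 KO over WT and -2.06 for double KO over Ezh2 KO. Taken as the median over its 21 exons, Ezh1 was 0.96, 0.0335, 0.971 and 0.0208 in the same order, so most exons had almost no coverage. H3K27me3 in the Ezh1 promoter window itself (chr11:101084777-101090777) was 17.2 in WT, 19.1 in Ezh1 KO cells, 14.5 in Ezh2 KO cells and 17.0 in double KO cells. Its log2 ratios were 0.14 (interval -0.11 to 0.41) and 0.22 (interval -0.05 to 0.51), so the mark at the deleted gene's own promoter did not differ beyond counting error.

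Close to Ezh1, no window was different by the shared criterion. At 1.5-fold in both ratios, 0 of 281 windows within 5 Mb and 0 of 380 within 10 Mb were lower, and 0 were higher. Outside these flanks the share lower was 0.0282% and 0.0284%, and the share higher was 0.119% for each. In so few windows a count of 0 cannot be told apart from shares this small. Within 20 Mb, 1 of 679 windows was lower, which is 0.147%, against 0.0278% of all windows (5 of 17988) and 4 of 17309 outside the region. That window is Coil, 12.26 Mb to the left of Ezh1, while the 4 outside had WT values of 1.74 (Vmn1r127) to 13.8 (ENSMUSG00000074832). Within 20 Mb, 3 of 679 windows were higher, which is 0.442%, against 0.117% of all windows (21 of 17988) and 18 of 17309 outside. These are Tmem132e, 18.89 Mb to the left, and Myo15b and Socs3, 14.64 and 16.74 Mb to the right. Both shares in the region are above the background, but they rest on 1 and 3 windows, and without Coil, which was known to differ when the interval was chosen, 0 of 678 were lower. With the highest bin of each window in place of its summed coverage, neither share was above the rest: lower windows were 0.147% in the region against 0.167% outside, and higher windows 0.294% against 0.305%. Under other scalings of the summed coverage the higher share stayed above the rest. It was 0.442% against 0.0173% with TMM scaling and 1.62% against 0.509% with background scaling. On the rest of chromosome 11, 0 of 771 windows were lower and 1 was higher, Kdm6b, a histone H3K27 demethylase. Around Ezh2 on chromosome 6, where the allele is floxed and is shared by the Ezh2 KO and the double KO, 0 of 301 windows passed in either direction. By Ezh2 KO over WT and double KO over Ezh1 KO, 1 of those 301 was lower and 0 were higher.

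**Figure D1:**
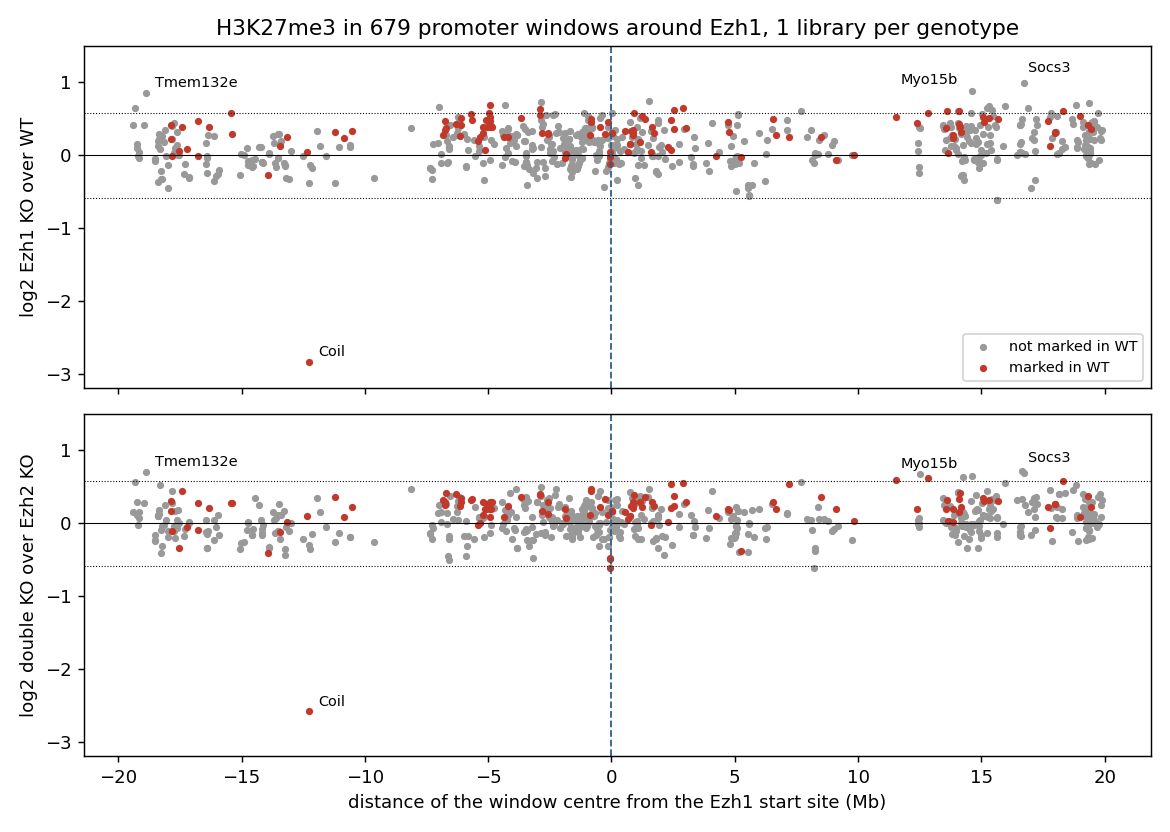
Each point is 1 promoter window, placed by the distance of its centre from the Ezh1 start site in Mb (x axis) and by its log2 H3K27me3 ratio (y axis), Ezh1 KO over WT above and double KO over Ezh2 KO below; dotted lines mark 1.5-fold and red points are windows marked in WT. Coil, at -2.84 and -2.58, lies far below every other window, while the 3 windows higher in both panels lie 14.64 to 18.89 Mb from Ezh1.

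Coil encodes coilin, the scaffold protein of Cajal bodies in the nucleus. H3K27me3 in its window (chr11:88828566-88834566) was 132.8 in WT, 17.7 in Ezh1 KO cells, 110.0 in Ezh2 KO cells and 17.5 in double KO cells. Both libraries with an intact Ezh1 allele were high and both libraries without it were low, with no overlap. WT was 7.49-fold above the Ezh1 KO, and the Ezh2 KO was 6.27-fold above the double KO. The log2 ratios were -2.84 (interval -3.10 to -2.71) and -2.58 (interval -2.85 to -2.46), resting on 1752 and 256 read equivalents in the first and 1424 and 256 in the second. The double KO over the Ezh1 KO had a log2 ratio of -0.01 (interval -0.27 to 0.24). Ezh2 KO over WT was -0.27 (interval -0.37 to -0.17), a far smaller difference.

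Among all windows, Coil ranked 2 by level in WT and 4 in Ezh2 KO cells, but 7521 in Ezh1 KO cells and 6917 in double KO cells. The levels of 17.7 and 17.5 lie close to the region's median windows, which were 17.8 and 15.7 in these same genotypes. The signal in WT was not held in a few bins, since the area was 68 times the highest bin of 25 bp. That was below the median of all windows, 81. The range from the 5th to the 95th percentile was 52 to 115. The highest bin itself was 1.96 in WT, 0.20 in Ezh1 KO cells, 1.46 in Ezh2 KO cells and 0.269 in double KO cells. Aligned as a whole, the window matched the mm9 genome at 1 place only, which leaves shorter repeats inside it unchecked.

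A level this high was unusual for so CpG-poor a window. Windows were called marked when their WT value was at least 40.1, which is 4 times the median of windows of genes in the top tertile of WT RNA. The median marked window held 151 CG, and only 28 of 2278 marked windows (1.23%) held no more than the 44 of Coil. The highest WT value among the other windows of that kind was 62. Among the members, the second highest WT value after Coil was 79.9, at Hoxb13. The window is centred on 88831566, the start of 1 of 4 annotated Coil transcripts, which has the status putative. A pair of protein-coding Coil transcripts start at 88835249, past the right end of the window, so the window lies upstream of them and does not hold their start.

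The windows next to Coil had far smaller differences. Scpep1, a serine carboxypeptidase gene to its left, had H3K27me3 of 13.2 in WT, 9.88 in Ezh1 KO cells, 12.3 in Ezh2 KO cells and 9.88 in double KO cells. Trim25, a ubiquitin ligase gene of antiviral signalling to its right, had 6.26, 5.59, 10.7 and 8.14. Neither passed 1.5-fold in both ratios. Coil RNA was 0.502 in WT, 0.415 in Ezh1 KO cells, 0.495 in Ezh2 KO cells and 0.375 in double KO cells, under the minimum of 1 in every library. In this mean both genotypes without Ezh1 were slightly below the others, while the median over its 11 exons, at 0.453, 0.493, 0.66 and 0.379, did not keep that order.

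**Figure D2:**
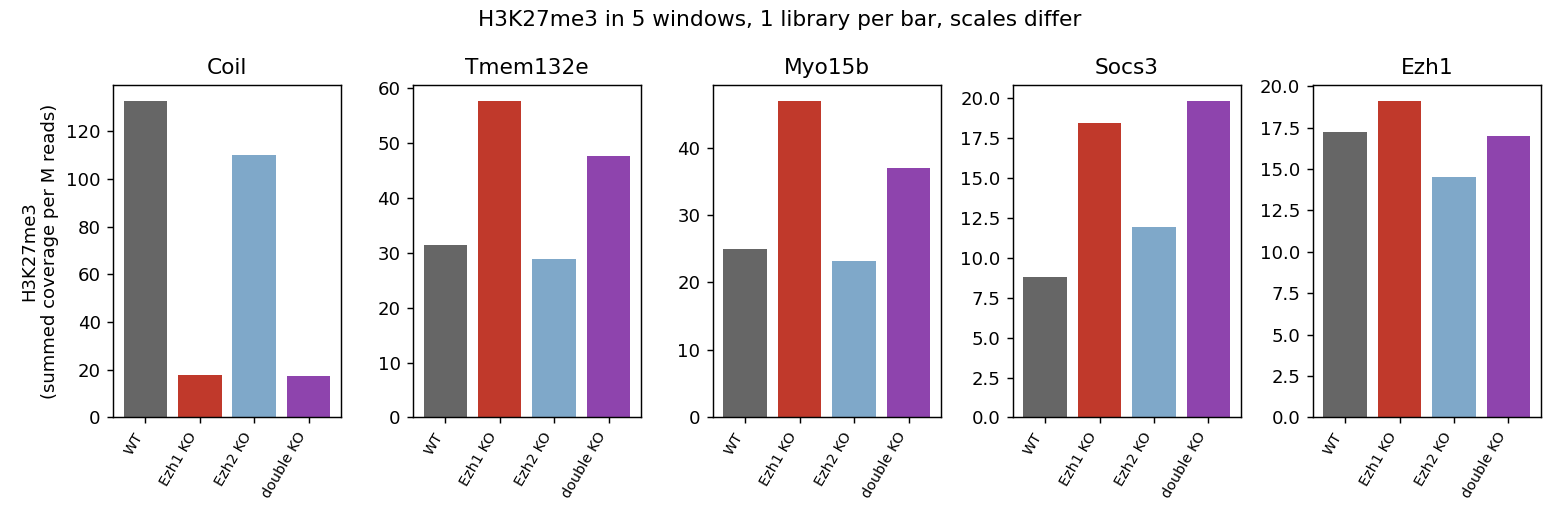
Bars give H3K27me3 as summed coverage per M reads (y axis, from 0, scaled separately in each panel) in the 4 genotypes (x axis) for Coil, Tmem132e, Myo15b, Socs3 and Ezh1, with 1 library per bar and no error bars. At Coil the Ezh1 KO and the double KO stand at 17.7 and 17.5 below 132.8 and 110.0, at the next 3 genes they stand above, and at Ezh1 the 4 bars lie between 14.5 and 19.1.

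The 3 higher windows had much smaller differences than Coil. Tmem132e, a transmembrane protein gene, had 31.4 in WT, 57.7 in Ezh1 KO cells, 28.8 in Ezh2 KO cells and 47.6 in double KO cells, with log2 ratios of 0.85 (interval 0.70 to 1.05) and 0.71 (interval 0.54 to 0.91). Myo15b, an unconventional myosin gene, had 25, 46.9, 23.1 and 37.0, with log2 ratios of 0.88 (interval 0.72 to 1.1) and 0.65 (interval 0.47 to 0.88). In both windows the libraries without Ezh1 lay above those with it. Neither gene had RNA above 0.00531 in any library. The calls depended on the processing: of these 3 windows, Socs3 alone passed when ratios were centred on windows of like level, and Tmem132e alone with a pseudocount of 5. TMM scaling kept all 3, while the number outside the region dropped from 18 to 3.

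Socs3 encodes an inhibitor of cytokine receptor signalling. Its window had 8.77 in WT, 18.4 in Ezh1 KO cells, 11.9 in Ezh2 KO cells and 19.8 in double KO cells, with log2 ratios of 0.99 (interval 0.75 to 1.4) and 0.69 (interval 0.44 to 1.02). Despite the higher values, all 4 libraries were under the WT level used to call a window marked. Socs3 RNA was 2.58 in WT, 2.90 in Ezh1 KO cells, 3.82 in Ezh2 KO cells and 4.15 in double KO cells, so RNA was not lower where H3K27me3 was higher. Over the median of its exons Socs3 RNA was 1.63, 1.24, 1.10 and 2.39, which gives another order. Just short of the threshold, Accn1, an acid-sensing ion channel gene 19.31 Mb to the left, had 36.8, 58.2, 37.0 and 55.3, with log2 ratios of 0.65 and 0.57 against a threshold of 0.585.

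A lower threshold, at least 25% above or 20% below in both ratios, gave enough windows to compare shares. Higher in both ratios were 59 of 679 members, or 8.69%, against 6.23% of all windows and 6.14% outside the region. Lower in both were 2 of 679, Coil and Polg2 (a subunit of the mitochondrial DNA polymerase), or 0.295%, against 0.678% of all windows. Whole chromosomes ranged from 1.93% (X) to 8.76% (15) for higher windows and chromosome 11 stood at 7.45%. The share around Ezh1 thus lay near the top of the range of whole chromosomes, above chromosome 4, the next highest, at 8.44%. Of the 59 higher windows, 24 were marked, which is 20% of the 120 marked members, against 18.8% of the 2158 marked windows outside. The other 35 were 6.26% of the 559 members that were not marked, against 4.33% outside. In both classes the region's share was above that outside, and the region also held more marked windows (17.7% against 12.5%).

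Of the 59 higher members, 3 had WT RNA of 1 or more, while 4 of all 120 marked members did. Among the 678 members with RNA, 202 reached 1 in their highest library, a looser measure than WT alone. Median WT RNA was 0.00757 over marked members and 0.324 over the others. The examples given next are developmental regulators, chosen after their values were seen. They do not stand for all 59, of which 35 were not marked. Sox9, a transcription factor of cartilage and gonad development, had 44.5 in WT, 64.3 in Ezh1 KO cells, 39.1 in Ezh2 KO cells and 59.3 in double KO cells. Wnt3, a secreted ligand of Wnt signalling, had 50.9, 79.1, 52.9 and 69.0. Dlx3, a homeobox factor of skin and tooth development, had 58.6, 83.6, 60.4 and 77.0. In these 3 windows both libraries without Ezh1 lay above both with it. Axin2, a feedback inhibitor of Wnt signalling, had 14.8, 23.1, 17.0 and 25.7, with an RNA level of 0.794 in WT and 0.667 in the double KO. The share of higher windows went with CpG content: it was 1.81% in the lower tertile of windows by CG count, 6.58% in the middle one and 14.8% in the upper one, against 2.41%, 4.93% and 11.2% outside the region. The members were also richer in CG, with a median of 130 per window against 117.

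By distance, higher windows were not most frequent next to Ezh1. From 0 to 5 Mb the share at least 25% higher was 6.25% of 176 windows on the left and 8.57% of 105 on the right. From 5 to 10 Mb it was 14.8% of 54 windows on the left, where Dlx3 lies, and 2.22% of 45 on the right. From 10 to 15 Mb it was 1.96% of 51 on the left and 12.9% of 70 on the right. Beyond 15 Mb it was 6.15% of 65 on the left and 14.2% of 113 on the right, so the shares varied along the chromosome with no steady decline away from Ezh1. The 2 lower windows fell in the bins from 10 to 15 Mb on the left (Coil) and from 5 to 10 Mb on the right (Polg2). At the edges of the interval, 5530401A14Rik just inside the left edge had log2 ratios of 0.41 and 0.15, and Spaca3 just outside had 0.31 and 0.24. At the right edge Tex19.2 inside had 0.34 and 0.32, and Tex19.1 outside had 0.24 and 0.12.

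**Figure D3:**
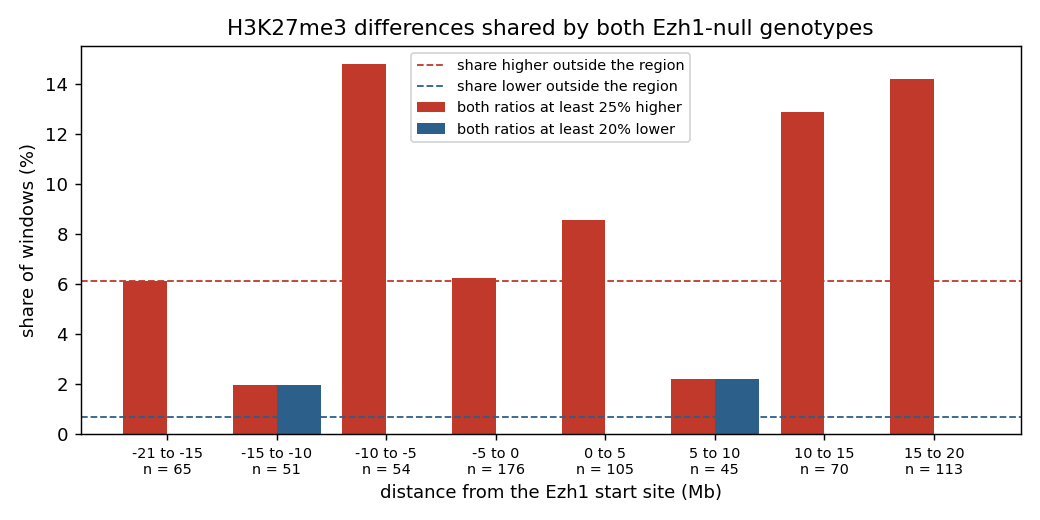
Bars give the share of windows in percent (y axis) with both ratios at least 25% higher (red) or 20% lower (blue), in bins of distance from the Ezh1 start site in Mb (x axis, with the number of windows), and dashed lines give the shares outside the region. The red bars are tallest at -10 to -5 Mb (14.8%) and 15 to 20 Mb (14.2%), not beside Ezh1, where they stand at 6.25% and 8.57%.

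As a whole the region was shifted only slightly. The median window had 15.1 in WT, 17.8 in Ezh1 KO cells, 15.1 in Ezh2 KO cells and 15.7 in double KO cells. The median of the mean of both log2 ratios was 0.11 in the region and 0.06 outside. For marked windows it was 0.29 against 0.26, and for the others 0.06 against 0.03. When each ratio was set against windows of like level, the medians were 0.02 and 0. Beyond 15 Mb on the right the median on that centred scale was 0.13, the highest of the 8 distance bins, while it was 0.02 and 0 within 5 Mb on each side.

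The 10 windows nearest to Ezh1 showed one stretch that was low in the double KO alone. Cntnap1 (a contactin-associated neuronal protein), Plekhh3 and the chemokine receptor gene Ccr10 lie about 0.05 Mb to the left, and their windows overlap and share reads. Cntnap1 had 47.8 in WT, 49.4 in Ezh1 KO cells, 49.5 in Ezh2 KO cells and 35.0 in double KO cells. Plekhh3 had 43.2, 42.3, 43.2 and 30.6, and Ccr10 had 48.9, 44.9, 42.6 and 27.5. In each, both single KO libraries lay near WT and the double KO was lowest, which is not the pattern of Coil. To the right, Ramp2 (a receptor activity-modifying protein) had 69.3, 85.8, 65.7 and 74.1, and Vps25 (an ESCRT sorting subunit), whose window overlaps it, had 67.9, 83.9, 64.1 and 72.2. Wnk4, a kinase of renal ion transport, had 39.3, 59.4, 43.1 and 48.2. Tubg1, Tubg2, Cntd1 and Ccdc56, the other 4 of the 10, ranged from 9.15 (Tubg1) to 20.1 (Tubg2), and none was 25% higher or 20% lower in both ratios.

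Gene families in the region differed in level and in how often both ratios were above 0, but no family member other than Socs3 passed 1.5-fold by the Ezh1 ratios. As background for the counts given next, both ratios were above 0 in 51.4% of all members and 45.1% of windows outside the region, and in 85.8% of marked members. Both were below 0 in 20.2% of all members and 5.83% of marked ones. In the Hoxb cluster of homeobox genes, 8 of 10 windows were marked and 8 had both ratios above 0, with medians of 57.6 in WT, 85.0 in Ezh1 KO cells, 62.3 in Ezh2 KO cells and 75.2 in double KO cells. Its highest WT windows were Hoxb13, at 79.9, 105.1, 84.1 and 101.1, and Hoxb6, at 76.9, 100.4, 85.9 and 98.1. Hoxb4 had both ratios below 0, at 34.7, 33.2, 29.3 and 26.7, so not every window of the cluster was higher. The windows of Hoxb8 and Hoxb7, of Hoxb6 and Hoxb5, and of Hoxb4 and Hoxb3 overlap and share reads. The counts for the cluster are therefore not counts of separate observations. The median log2 ratios of Hoxb were 0.39 and 0.19, against 0.33 and 0.23 over the marked members.

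The 27 type I keratins, structural proteins of epithelia, had 2 marked windows and median log2 ratios of 0.23 and 0.13. The 21 keratin-associated proteins next to them had none and medians of -0.11 and -0.05. Over all members the medians were 0.15 and 0.07. The highest keratin windows in WT were Krt25 (45.2, 43.9, 35.5 and 40.7) and Krt28 (41.7, 42.0, 37.1 and 39.3), which differed little between WT and the Ezh1 KO. None of the 58 Hoxb, keratin and keratin-associated genes had RNA over the minimum. Among 7 Cd300 genes, receptors of myeloid cells, 6 had both ratios above 0, and the median ratios were 0.24 and 0.03. Among 11 Ccl chemokine genes 6 did, with medians of 0.09 and 0.07, and among 7 Slfn genes, whose relatives make their values uncertain, 2 did and 3 had both below 0.

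Of 4 members of the PRC1 complex, which binds H3K27me3, Cbx2 was the only marked one (49.1 in WT, 53.8 in Ezh1 KO cells, 49.9 in Ezh2 KO cells and 47.6 in double KO cells), and Cbx8 had 38.5, 58.1, 41.4 and 48.0. Of 12 T cell and lineage genes, 7 had both ratios above 0 and 2 had both below. Tbx21, the T-bet factor of Th1 cells, had H3K27me3 of 37.8, 42.6, 28.5 and 38.2. Stat5b, a transducer of interleukin signals, had RNA of 3.23, 3.25, 3.24 and 3.21. Of 5 cell cycle genes none had both ratios above 0.

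The same windows were compared for loss of Ezh2, as Ezh2 KO over WT and double KO over Ezh1 KO. Lower by 1.5-fold in both were 2 of 679 members (0.295%), against 0.411% of all windows. Kif19a, a kinesin of cilia, had 39.0 in WT, 41.1 in Ezh1 KO cells, 24.2 in Ezh2 KO cells and 24.6 in double KO cells, and Rnf157, a ubiquitin ligase, had 18.2, 18.6, 11.1 and 12. At both, the libraries without Ezh2 were the low pair. Higher in both was 1 window (0.147%, against 0.05% of all), Slfn8, at 5.18, 4.32, 9.78 and 7.09. Slfn8 has near-identical relatives such as Slfn9, so its values are uncertain. Compared with WT alone, 2 members were at least 2-fold different in any mutant (0.295%, against 0.217% of all windows), Coil and Socs3.

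In RNA, Ezh1 was the only member lower by 1.5-fold in both ratios without Ezh1. That is 1 of 202 genes (0.495%), against 0.11% of all genes (6 of 5448), and without Ezh1 itself it is 0 of 201. Higher in both were 0 of 202, against 0.147% of all genes (8 of 5448). At the lower threshold, 6 members were at least 20% lower (2.97%), against 1.3% of all genes, and 1 was at least 25% higher (0.495%, against 0.385%). The median of the mean log2 ratio was -0.07 in the region and -0.09 outside. Over all genes the median was -0.13 for Ezh1 KO over WT and -0.06 for double KO over Ezh2 KO, and the counts at the lower threshold are to be read against that offset. With TMM scaling, which takes most of it out, Ezh1 was again the 1 lower member, with 1 lower gene outside in place of 5. In bulk RNA, fewer cells of a type and less RNA per cell cannot be told apart.

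**Figure D4:**
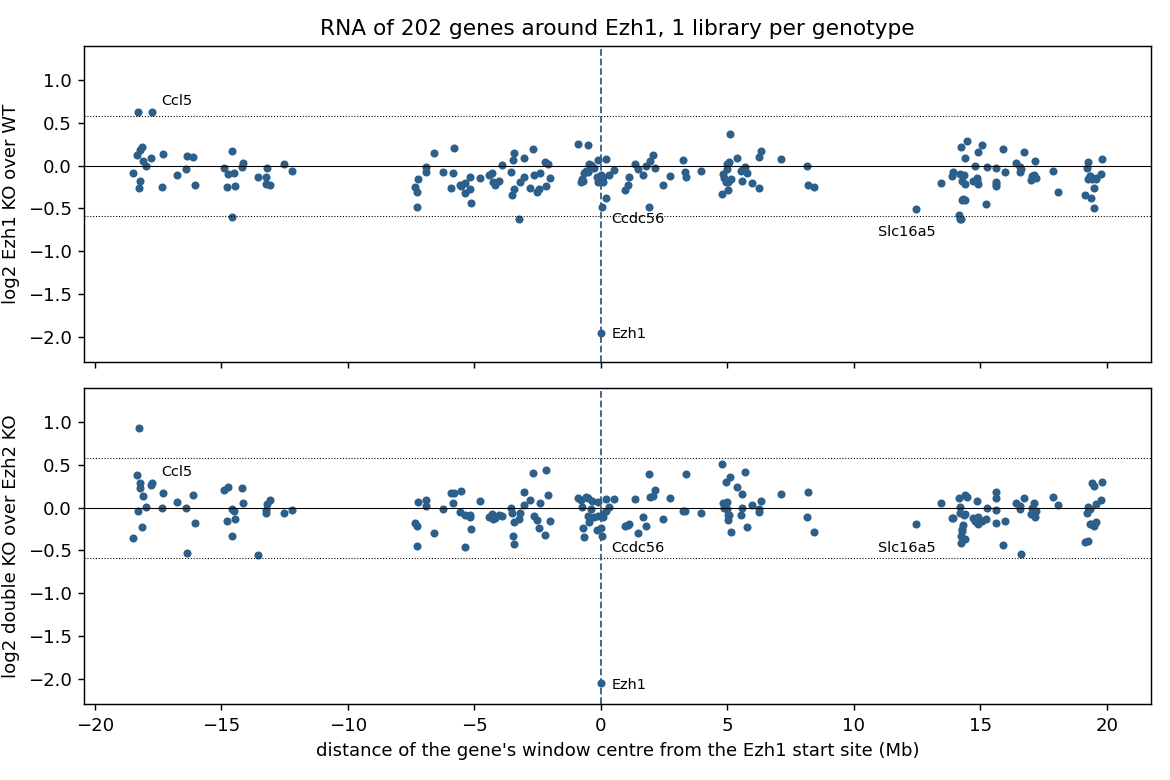
Each point is 1 of 202 genes, placed by its window's distance from the Ezh1 start site in Mb (x axis) and its log2 RNA ratio (y axis), Ezh1 KO over WT above and double KO over Ezh2 KO below, with dotted lines at 1.5-fold. Ezh1, at -1.96 and -2.06, is the only gene beyond 1.5-fold in the same direction in both panels.

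The 6 genes at least 20% lower were Ezh1, Ccdc56, Slc16a5, Mrps7, Gngt2 and Actg1. Ccdc56, a cytochrome oxidase assembly factor whose window is 0.05 Mb from Ezh1, had RNA of 1.24 in WT, 0.859 in Ezh1 KO cells, 1.10 in Ezh2 KO cells and 0.855 in double KO cells. It is the nearest of the other 5 to Ezh1, and its libraries without Ezh1 were the low pair. Mrps7, a protein of the mitochondrial ribosome 14.38 Mb to the right, had 1.77, 1.32, 1.81 and 1.38, and Gngt2, a G protein subunit 5.39 Mb to the left, had 1.32, 1.03, 1.76 and 1.24. Slc16a5, a monocarboxylate transporter, had 1.39, 0.861, 0.969 and 0.75, and Actg1, cytoplasmic gamma actin, had 51.7, 40.7, 39.7 and 30.1. In these last both single KO libraries were under WT, and Actg1 has near-identical relatives, so its level is uncertain. The 1 higher gene was Cd79b, part of the B cell receptor, at 0.325, 0.451, 0.786 and 1.03, and it is itself one of the B cell markers, whose sum was ordered alike. The part of B cells in that value was not tested.

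By the Ezh2 ratios, Ezh2 KO over WT and double KO over Ezh1 KO, 6 members differed in RNA by 1.5-fold. Higher by 1.5-fold in both Ezh2 ratios were 5 of 202 genes (2.48%), against 1.28% of all genes, and lower was 1 (0.495%, against 0.11%). Ccl5, a chemokine of activated and cytotoxic lymphocytes, had 0.918 in WT, 1.47 in Ezh1 KO cells, 2.08 in Ezh2 KO cells and 2.56 in double KO cells. Birc5, the mitotic protein survivin, had 0.641, 0.618, 1.59 and 1.06. Dhx58, an RNA helicase of the antiviral response, had 1.05 in WT, 2.01 in Ezh2 KO cells and 2.18 in double KO cells, with a log2 ratio of 0.24 for Ezh1 KO over WT. The other higher genes were Cd79b and Slfn9, the latter uncertain because of its relatives. The lower gene was Dhx40, a helicase, at 1.7, 1.42, 0.938 and 0.846. All 4 B cell markers, and Gzma alone of the 3 NK cell markers, were higher in both libraries without Ezh2 than in either library with it, and their part in Ccl5 and Cd79b was not tested. Against WT alone, 6 members were at least 2-fold different in any mutant (2.97%, against 2.18% of all genes): Ezh1, Birc5, Cd79b, Slfn9, Slfn8 and Ccl5.

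Whether a segment of another strain surrounds the Ezh1 allele was not tested, since the values used here carry no strain alleles. Loss of the protein and linkage to the allele are both shared by the Ezh1 KO and the double KO, and cannot be told apart at Coil by this design.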

How the data were processed

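H3K27me3 ChIP-seq and RNA-seq of 4 genotypes were used, with 1 library each. Reads were aligned to mm9 with Bowtie 0.12.7 and kept with at most 2 errors at a single location, per the labels. Tools listed without a role in the submitters' processing notes are bcl2fastq, Cufflinks and Cuffdiff. All deposited measurements are coverage signals, per the file headers the area and highest bin of a window at each start site, and the mean and median over exons of peak coverage; from the values they are per M reads, with 25 bp bins and reads extended to 151 bp. The RNA files also give another number, that of exons, per the file headers. How the authors computed the columns is not stated, and input was not used here.

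Groups came from the genotype labels. Ratios, the minimum of 1 in the highest library, and counts past 1.5-fold, 2-fold and a lower threshold (25% above or 20% below) were computed for all 17988 windows and 5448 genes; no p was computed. Level-centred ratios subtract the running median of 501 windows of like level. The annotation and sequence are those of NCBIM37: chromosome 11 is 121843856 bases long there and 0 of its windows passed the end, against 2 on any chromosome. Windows overlapping another (177 members, of which 8 share coordinates) share reads. The calls were tested on simulated data with counting error alone, so spread between libraries was not part of that test. Alternatives were 2 scalings, level-centred ratios, other pseudocounts, minimums, folds, flanks and summaries, merged windows, and both mutants over WT.

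Members and lists were chosen with earlier results of these data known. Named were Ezh1 and Coil, members past 1.5-fold in both Ezh1 ratios (up to 15 per assay and direction), members at least 2-fold from WT (up to 8), the 5 windows nearest to Ezh1 on each side, and of each list those past a fold. The 2 highest in WT were planned for every list but are given for the Hoxb, type I keratin and PRC1 lists only. Other genes named, including those past the lower threshold and the neighbours of Coil, were chosen after their values were seen. Tools were Python 3.11.15, numpy 2.4.6, pandas 2.3.3, scipy 1.17.1, matplotlib 3.10.9 and minimap2 2.31-r1302.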

Additional observations from a re-analysis of the deposited data

How the results depend on the processing

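Of 75 values under other settings, 49 stayed within 1.5 times of the reported count or near the reported difference, 26 moved and 0 reversed. Only the median difference could be called reversed, because a count has no sign. These labels follow the region's own value. They do not hold a change of order against the rest, as with the highest bin. Coil was the lower window in every setting with 20 Mb flanks that kept it, with log2 ratios from -2.60 to -3.21 and from -2.35 to -2.84, and Polg2 joined it at the lower threshold of 25% above or 20% below (2); with Coil left out, a setting chosen after seeing the data, the count was 0. The higher H3K27me3 windows (3) were 11 under background scaling (88 outside), 1 with level-centred ratios (Socs3), 1 with a pseudocount of 5 (Tmem132e), 59 at the lower threshold and 0 at 2-fold; under TMM scaling they stayed 3, with 3 outside in place of 18. The highest bin gave Myo15b and Pnmt, with 53 outside (0.294% against 0.305%), and 1 lower with 29 outside (0.147% against 0.167%). Both mutants over WT, which share WT, gave Axin2, Qrich2 and Socs3, with 49 outside. With flanks of 5 or 10 Mb the lower, higher and Ezh2 counts were each 0, against shares outside of at most 0.471%. The windows differing without Ezh2 (3) were 0 with level-centred ratios, 1 with a pseudocount of 5, 31 at the lower threshold and 0 at 2-fold. The median difference between the region and the rest, 0.046, was 0.025 with level-centred ratios. Lower RNA (1) was 6 at the lower threshold, 3 over WT (Ezh1, Slc16a5, Arl5c), 0 without Ezh1 itself and 0 by the median over exons, where Ezh1 (0.96 and 0.971) falls under the minimum. Higher RNA (0) was 1 with a minimum of 0.5 or none (Sp6), 1 at the lower threshold (Cd79b) and 2 over WT (Slfn9, Ccl5). Lower folds and shorter flanks move counts by construction; otherwise the cause was not tested. No paired analysis was possible because each genotype has 1 library and the labels carry no replicate numbers, and for the same reason no library could be left out.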
